A study of Mus musculus with 31 samples.

Results

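The laminin chains and the integrin subunits were described across sorted cells of the newborn mouse pancreas. The members were all genes whose symbol names a laminin alpha, beta or gamma chain or an integrin alpha or beta subunit, 37 of the 38283 genes in each deposited table. They comprised 5 laminin alpha, 3 beta and 3 gamma chains, 18 integrin alpha subunits and 8 integrin beta subunits. The choice used gene names only and no measured value, though earlier results of these data were known.

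Laminins are cross-shaped trimers of 1 alpha, 1 beta and 1 gamma chain that assemble into the sheet of every basement membrane. Integrins are cell surface receptors made of 1 alpha and 1 beta subunit, which bind laminin, collagen, fibronectin and other matrix proteins or counter-receptors on other cells. In the developing pancreas, epithelium, vessels and mesenchyme meet at such membranes.

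RNA sequencing had been done on cells of postnatal day 2 C57BL/6 mouse pancreas, separated by fluorescence-activated sorting into YFP+ mesenchymal and YFP- non-mesenchymal cells. Every group, controls included, carried 1 copy of Nkx3.2-Cre, a Cre recombinase driven from a gene of the pancreatic mesenchyme. In the H19DMD model, the mutants were H19DMD fl/+; Nkx3.2 +/Cre and the controls H19DMD +/+; Nkx3.2 +/Cre, where H19DMD is the imprinting control region shared by H19 and Igf2. In the Igf2 model, the mutants were Igf2 +/fl; Nkx3.2 Cre/+ and the controls Igf2 +/+; Nkx3.2 Cre/+. The series calls the models mesenchymal overexpression and deletion of Igf2, a fetal growth factor. Values of 21 of the 31 labelled libraries were analysed here: 3 mesenchymal controls, 4 mesenchymal mutants, 3 non-mesenchymal controls and 4 non-mesenchymal mutants of the H19DMD model, and 4 non-mesenchymal controls and 3 non-mesenchymal mutants of the Igf2 model. The labels do not say that each library came from a separate animal, so the p-values measure the spread between these libraries, which may be partly technical.

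Levels are FPKM, fragments scaled to transcript length and to the total of mapped fragments in the library, which allows levels of different genes to be set side by side. Between 17476 and 20918 genes had a value above 0 per library. Igf2 stood at 3648 to 4024 FPKM in the mesenchymal H19DMD controls and at 6162 to 7923 FPKM in the mesenchymal mutants, and H19 at 2437 to 2454 FPKM against 565 to 835 FPKM. In the non-mesenchymal cells of the Igf2 model, Igf2 stood at 71.5 to 144 FPKM in controls and 25 to 146.5 FPKM in mutants. The summed level of 12 mesenchymal markers was 6351 to 7442 FPKM in the mesenchymal controls and 169.8 to 208 FPKM in the non-mesenchymal controls, where Nkx3-2 and Barx1 were listed at 0. In the mesenchymal controls Barx1 ranged from 3.31 to 10.7 FPKM. Nkx3-2 ranged only from 0 to 0.886 FPKM there, so its level does not tell the sorts apart. Acinar, endocrine, ductal and leukocyte markers lay on the non-mesenchymal side, so that fraction is a mixture of cell types. The mesenchymal sort also held smooth muscle and pericyte markers (505 to 841 against 11.6 to 16.7 FPKM in the controls), mesothelial markers (138 to 304 against 3.67 to 10.1 FPKM) and endothelial markers (113 to 147 against 22.7 to 66.8 FPKM). In these bulk libraries, fewer cells of a type and less RNA per cell cannot be told apart.

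Promoter sequences are shown for 5 members. Lama2 and Itga1, high in the mesenchymal sort, and Itgam and Itga4, high in the non-mesenchymal sort, had the largest mean differences among abundant members called in both fraction contrasts with 1 listed start, a start matched to a GENCODE transcript and no annotated exon in the window. Itga5, which was close to Itga1 in difference, was left out because its start was not matched. Lama5 was added as the member with the lowest p in the test of whether the mutant effect differed between the sorts. Each is the 250 bases before the RefSeq transcription start in GRCm38.p6, written 5′ to 3′ on the gene's own strand. The windows lie at chr10:27616943-27617192 (minus strand), chr13:115101965-115102214 (minus), chr7:128062390-128062639 (plus), chr2:79255176-79255425 (plus) and chr2:180225860-180226109 (minus). The Lama2 window lies inside the gene body of a longer annotated Lama2 transcript. Capitals mark matches, on either strand, to 4 motifs, and no matches overlapped. The letters searched were TATAAA for the TATA box and GGGCGG for the GC box. They were TGANTCA for the AP-1 site and GAGGAA for the ETS core.
Lama2: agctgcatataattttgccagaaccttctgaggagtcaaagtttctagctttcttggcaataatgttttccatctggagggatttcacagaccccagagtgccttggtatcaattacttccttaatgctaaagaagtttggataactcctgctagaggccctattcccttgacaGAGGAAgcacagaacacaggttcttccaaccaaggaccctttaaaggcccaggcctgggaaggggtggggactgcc
Itga1: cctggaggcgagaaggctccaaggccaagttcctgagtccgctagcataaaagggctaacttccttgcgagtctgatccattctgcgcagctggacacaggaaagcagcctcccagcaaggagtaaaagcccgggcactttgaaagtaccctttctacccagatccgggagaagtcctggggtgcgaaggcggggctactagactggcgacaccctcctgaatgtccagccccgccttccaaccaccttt
Itgam: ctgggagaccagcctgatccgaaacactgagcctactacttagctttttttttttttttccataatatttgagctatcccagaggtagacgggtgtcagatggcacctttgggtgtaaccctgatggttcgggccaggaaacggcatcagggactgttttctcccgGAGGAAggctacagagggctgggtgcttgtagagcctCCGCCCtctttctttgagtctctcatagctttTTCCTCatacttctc
Itga4: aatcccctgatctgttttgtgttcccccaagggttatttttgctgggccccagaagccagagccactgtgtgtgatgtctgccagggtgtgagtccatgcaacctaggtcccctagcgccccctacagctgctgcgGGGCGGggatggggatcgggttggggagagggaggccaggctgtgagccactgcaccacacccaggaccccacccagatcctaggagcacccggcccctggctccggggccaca
Lama5: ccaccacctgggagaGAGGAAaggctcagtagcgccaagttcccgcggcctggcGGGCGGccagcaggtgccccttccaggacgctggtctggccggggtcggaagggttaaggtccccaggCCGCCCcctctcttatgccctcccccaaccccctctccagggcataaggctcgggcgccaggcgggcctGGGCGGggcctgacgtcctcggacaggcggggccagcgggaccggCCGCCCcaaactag

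The Lama5 window was the richest in C and G of the 5, at 72.4%, and carried 4 GC boxes, while the Lama2 window had 47.2% C and G, no CpG and no GC box. The median over 32536 distinct windows of all genes was 52.4%. Itgam held 2 ETS cores and 1 GC box, Itga4 held 1 GC box, and Itga1 held none of the 4 motifs. RefSeq windows were found for 23 of the 37 members, 26 windows in all. A TATA box was in 0 of the 26 against 12.3% of all windows, a GC box in 9 against 33%, an AP-1 site in 1 against 6.73% and an ETS core in 13 against 23.4%. These matches are letters in a short window and say nothing of what binds there.

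The question of the first comparison was which sorted fraction carried the ligand chains and which the receptors. In the H19DMD controls, the 11 laminin chains summed to 604 ± 26.3 FPKM (SD, n = 3) in mesenchymal libraries and 176 ± 17.1 FPKM in non-mesenchymal libraries. The 26 integrin subunits summed to 385 ± 40.7 and 326 ± 39.7 FPKM. The laminin sums did not overlap, at 576 to 628 against 161 to 195 FPKM, whereas the integrin sums did, at 349 to 429 against 280.4 to 355 FPKM. Taken apart, the integrin alpha sums overlapped, at 188 to 250 against 203 to 256 FPKM. The integrin beta sums did not, at 162 to 182 against 77 to 114 FPKM. In these controls, Itgal, Itgam, Itgax, Itgae, Itgad, Itgb2 and Itgb7, known from leukocytes, summed to 1.45 to 3.38 against 43.1 to 59.3 FPKM. In the mutants, the laminin sums were 526 to 673 against 219 to 304 FPKM. The integrin sums of the mutants were 283 to 425 against 319 to 412 FPKM. Laminin RNA was thus more abundant per length in the mesenchymal sort, while integrin subunits were found on both sides. Which sort was higher differed between sets of integrins.

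Of the 30 members that passed the filter of a mean of at least 1 FPKM, 13 were higher and 8 lower in mesenchymal controls by limma at an adjusted p under 0.05, against a background of 12.4% of all 16732 tested genes higher and 10.3% lower. The higher ones were 5 laminins and 8 integrins. The same contrast in the mutants, which shares no library with the first, had 12 members higher and 11 lower of 31 tested, against 13.5% and 15.1% of 16767 genes. Of 29 members tested in both contrasts, 11 were higher in both (4 laminins and 7 integrins) and 8 lower, against 9.63% and 8.74% of the 15715 genes tested in both. The median difference of the tested members on the log2(FPKM + 1) scale was 0.77 in controls and -0.35 in mutants, with 0.08 and -0.03 over all genes. The mutant median turned positive, 0.88, when a mean of at least 5 FPKM was required, and also without non-mesenchymal mutant replicate 1, 2 or 3 (0.14, 0.17 and 0.24), while the control median was 0.29 without mesenchymal control replicate 1. The sign of the mutant median thus rests on single libraries. With 3 libraries a side, the exact permutation test of a single gene cannot go below p = 0.1, and with 4 a side not below 0.0286. In the fraction contrasts every log2 difference is mesenchymal minus non-mesenchymal on the log2(FPKM + 1) scale, which understates changes of low genes.

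**Figure D1:**
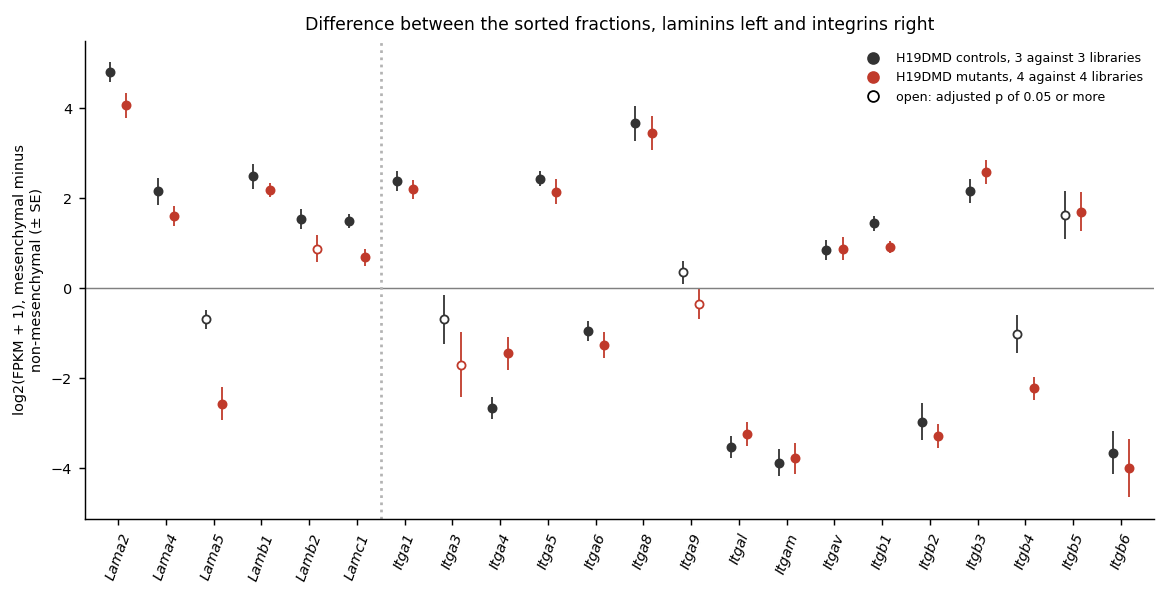
Log2 difference between mesenchymal and non-mesenchymal cells (vertical axis, log2(FPKM + 1), points with ± SE) for the tested members with a group mean of at least 10 FPKM, in H19DMD controls (dark) and mutants (red), open where the adjusted p was 0.05 or more. Lama2 (4.80 and 4.06) and Itga8 (3.67 and 3.46) lie highest, and Itgam, Itgb6, Itgal and Itgb2 lie between -2.96 and -3.99.

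The laminin alpha chains, which carry the domains that integrins bind, differed in which sort they were higher in. Lama2, the alpha chain of muscle and nerve basement membranes, was nearly confined to mesenchymal libraries. It measured 32.6, 43 and 40.9 FPKM in the mesenchymal controls and 0.591, 0.191 and 0.5 FPKM in the non-mesenchymal controls, a 90.8-fold ratio of means. In the mutants it measured 33.2, 35.4, 28.6 and 42.6 FPKM against 0.67, 1.39, 0.523 and 2.37 FPKM. Every mesenchymal library far exceeded every non-mesenchymal one, with log2 differences of 4.80 ± 0.21 (SE, adjusted p = 0.000102) in controls and 4.06 ± 0.28 (SE, adjusted p = 1.99e-05) in mutants.

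Lama4, an alpha chain of vessel walls and mesenchymal tissue, was the most abundant alpha chain of the mesenchymal sort and was also clear in the non-mesenchymal one. The controls gave 108, 133 and 119 FPKM in mesenchymal and 16.9, 29.9 and 35.2 FPKM in non-mesenchymal libraries. The mutants gave 96, 122, 108 and 145 FPKM and 26.9, 40.4, 49.6 and 36.3 FPKM. The groups did not overlap in either contrast, and the log2 differences were 2.15 ± 0.29 (SE, adjusted p = 0.00392) and 1.61 ± 0.22 (SE, adjusted p = 0.000801). Endothelial markers, which move the same way between the sorts, are given above, and their part in the Lama4 difference was not tested.

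Lama5, the main alpha chain of epithelial basement membranes, lay on the other side. Mesenchymal controls had 19, 14.7 and 12.1 FPKM and non-mesenchymal controls 26.5, 23.2 and 25 FPKM. In the mutants the values were 11.5, 6.68, 2.85 and 10.9 FPKM and 39.1, 48.7, 55.4 and 47.5 FPKM. All mesenchymal libraries were below all non-mesenchymal ones in both genotypes. The difference missed the threshold in the controls, at -0.69 ± 0.21 (SE, adjusted p = 0.0634), and passed it in the mutants, at -2.57 ± 0.37 (SE, adjusted p = 0.00114). Without mesenchymal control replicate 1 the control difference was -0.85 with an adjusted p of 0.046, and with median-ratio scaling it was -0.81 with an adjusted p of 0.0412.

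The remaining alpha chains were low. Lama1, a chain of early embryonic membranes, reached 2.43 FPKM in 1 mesenchymal control and at most 0.333 FPKM in any non-mesenchymal library. Lama3, a chain of stratified epithelium, stayed between 0.0284 and 1.78 FPKM everywhere. In the H19DMD model Lama3 was higher in mesenchymal libraries without overlap. It measured 1.13 to 1.72 against 0.263 to 0.559 FPKM in controls and 0.794 to 1.78 against 0.263 to 0.749 FPKM in mutants. Neither Lama1 nor Lama3 was tested between the fractions, because both averaged under 1 FPKM.

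As shares of the summed alpha chain level, Lama4 made up 67.9% ± 1.22 (SD, n = 3) in mesenchymal controls, Lama2 21.9% ± 1.6 and Lama5 8.75% ± 2.61. In non-mesenchymal controls, Lama4 made up 50.3% ± 10.8 and Lama5 47.8% ± 10.1. The non-mesenchymal libraries of the Igf2 model, from the other table, had 49.6% ± 4.66 (SD, n = 4) for Lama4 and 47.7% ± 5.18 for Lama5 in controls, and 46.9% ± 7.75 and 49.8% ± 7.24 (n = 3) in mutants. The non-mesenchymal mutants of the H19DMD model had 43.2% ± 2.92 and 54.6% ± 2.61 (n = 4). All 4 non-mesenchymal groups thus had Lama4 and Lama5 as their main alpha chains, and the mesenchymal groups had Lama4 with Lama2.

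**Figure D2:**
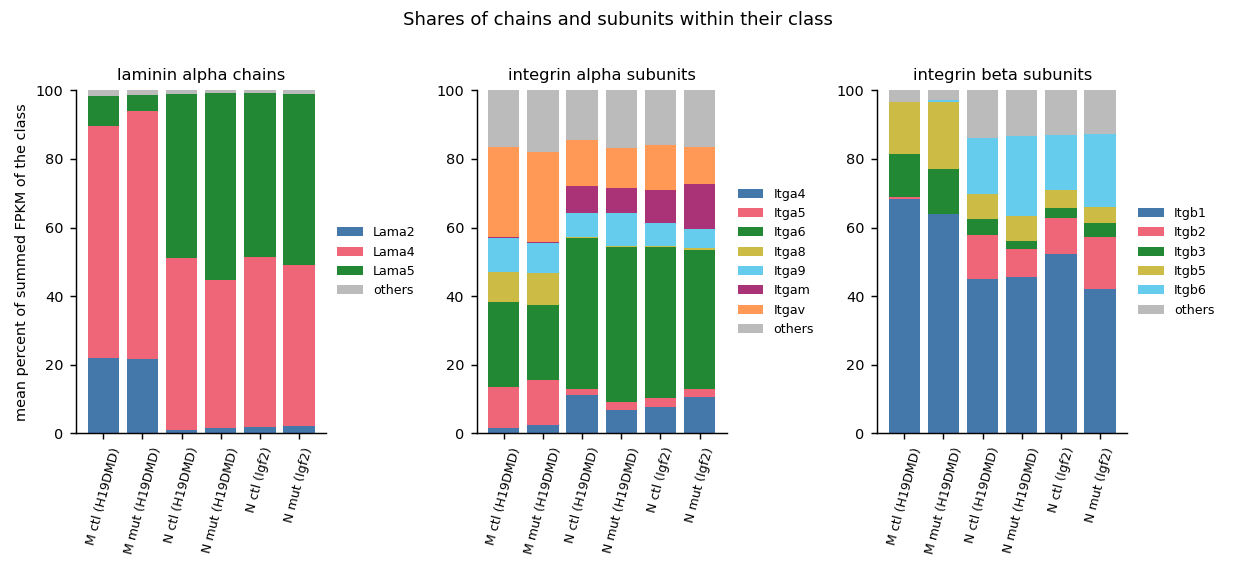
Mean share of each chain or subunit in the summed FPKM of its class (vertical axis, percent) for the 6 groups, M mesenchymal and N non-mesenchymal, ctl control and mut mutant; chains under 8% in every group are pooled as others. Lama2 and Lama4 fill most of the laminin alpha bars of the mesenchymal groups, Lama5 takes 8.75% of the mesenchymal and 47.8% of the non-mesenchymal control bar, and Itgb6 and Itgb2 are visible in the non-mesenchymal bars.

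Of the beta chains, Lamb1 dominated both fractions. This widely used chain measured 188, 197 and 194 FPKM in mesenchymal controls, a narrow range, and 25.9, 28.7 and 51 FPKM in non-mesenchymal controls. Mesenchymal mutants had 201, 196, 221 and 245 FPKM and non-mesenchymal mutants 37.5, 51.9, 45.7 and 51.6 FPKM. Groups were far apart, with log2 differences of 2.49 ± 0.28 (SE, adjusted p = 0.00182) and 2.19 ± 0.15 (SE, adjusted p = 2.18e-05). Lamb1 was 92.5% ± 1.11 of all beta chain level in mesenchymal and 84.9% ± 5.5 in non-mesenchymal controls (SD, n = 3 each).

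Lamb2, known from the kidney filter and the neuromuscular synapse, was a minor beta chain. Its controls gave 17.3, 13.4 and 15.9 FPKM and 3.75, 6.04 and 4.33 FPKM, without overlap, and a log2 difference of 1.55 ± 0.22 (SE, adjusted p = 0.00478). Its mutants gave 13.7, 15.4, 6.3 and 15.4 FPKM and 5.4, 6.36, 4.56 and 8.48 FPKM, where mesenchymal replicate 3 fell among the non-mesenchymal libraries and the difference of 0.88 ± 0.31 (SE, adjusted p = 0.0651) missed the threshold. It passed without that library (1.16, adjusted p = 0.00799), with median-ratio scaling (0.0406), with 1 fit of 4 groups (0.0238) and with a replicate block (0.0357). Lamb3, a chain of epithelial anchoring laminin, was at most 1.56 FPKM in mesenchymal and 3.91 FPKM in non-mesenchymal libraries of this model.

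The gamma chain of most laminins, Lamc1, was the most abundant member in the mesenchymal controls. It stood at 205, 205 and 240 FPKM there and at 80.4, 78.4 and 70.8 FPKM in non-mesenchymal controls. Mutant libraries had 206, 216, 157 and 213 FPKM and 98.2, 138, 110 and 147 FPKM. Groups did not overlap in either contrast, with log2 differences of 1.49 ± 0.15 (SE, adjusted p = 0.00136) and 0.69 ± 0.18 (SE, adjusted p = 0.0231). The mutant call was lost without mesenchymal replicate 1, 2 or 4 or non-mesenchymal replicate 1 or 3, at adjusted p values of 0.0508 to 0.0633.

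Lamc3 was low, at 0.0992 to 0.737 FPKM in mesenchymal and 0 to 0.0352 FPKM in non-mesenchymal controls, without overlap. In mesenchymal mutants it ranged from 0 to 5.98 FPKM, highest in replicate 1. In non-mesenchymal mutants it was at most 0.0806 FPKM, so the mutant groups overlapped.

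**Figure D3:**
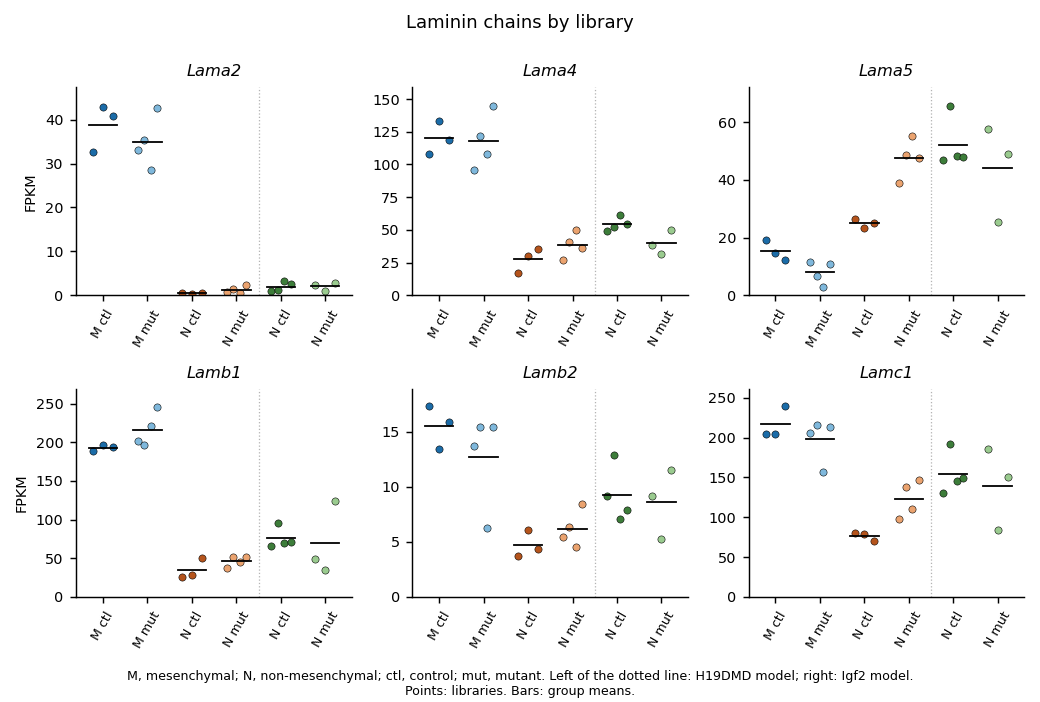
FPKM of 6 laminin chains (vertical axes, each from 0) in every library (points) with group means (bars); left of the dotted line the H19DMD model, right the separately normalised Igf2 model. Lama2, Lama4, Lamb1 and Lamc1 are higher in mesenchymal libraries, while Lama5 is higher in non-mesenchymal ones.

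Among the receptors for collagen, which pair with Itgb1, Itga1 was a mesenchymal gene. The mesenchymal controls had 9.03, 12.7 and 12.8 FPKM and the non-mesenchymal controls 1.16, 1.48 and 1.48 FPKM. In mutants the values were 15.8, 11.9, 13.1 and 8.97 FPKM and 1.38, 2.3, 2.3 and 1.67 FPKM. The sorts were separated by a wide gap, with log2 differences of 2.38 ± 0.22 (SE, adjusted p = 0.000916) and 2.2 ± 0.22 (SE, adjusted p = 0.000146). Itga11, the fibroblast collagen receptor, averaged 6.06 ± 1.72 FPKM in mesenchymal and 0.0447 ± 0.0774 FPKM in non-mesenchymal controls (SD, n = 3), with log2 differences of 2.73 ± 0.28 (SE, adjusted p = 0.00134) and 2.40 ± 0.32 (SE, adjusted p = 0.000802). Itga10, known from cartilage, averaged 2.1 ± 0.783 against 0.401 ± 0.145 FPKM in controls and missed the threshold in both contrasts (adjusted p of 0.0526 and 0.0586). In controls it passed with a pseudocount of 0.1 (0.0462), without trend (0.0244) and with no filter (0.0389). In mutants it passed with a pseudocount of 0.1 (0.0355), with 1 fit of 4 groups (0.0183), with median-ratio scaling (0.0492) and without mesenchymal replicate 1 (0.0325). Itga2 ranged from 0.85 to 3.12 FPKM in mesenchymal and 1.55 to 2.48 FPKM in non-mesenchymal libraries of the model, with differences of 0.05 ± 0.29 and -0.37 ± 0.31 that missed the threshold.

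The laminin receptors include Itga6, the most abundant member in the non-mesenchymal controls of the H19DMD model. It measured 86.7, 122 and 95.9 FPKM there and 61.8, 51.8 and 42.3 FPKM in mesenchymal controls. The mutants had 86.3, 113, 118 and 93.7 FPKM and 55, 66.3, 30.6 and 28.1 FPKM. Non-mesenchymal libraries were all above mesenchymal ones, yet the latter were far from 0, and the log2 differences were -0.95 ± 0.22 (SE, adjusted p = 0.0268) and -1.26 ± 0.29 (SE, adjusted p = 0.0138). The control call was lost without mesenchymal replicate 2 or 3 or non-mesenchymal replicate 2 or 3, at adjusted p values of 0.0671 to 0.0792. Itga6 held 44.2% ± 3.04 of the alpha subunit level in non-mesenchymal and 24.7% ± 2.99 in mesenchymal controls (SD, n = 3).

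Itga3, an epithelial laminin receptor, was variable within groups. Controls gave 9.66, 3.54 and 4.11 FPKM in mesenchymal and 4.15, 10.9 and 16 FPKM in non-mesenchymal libraries, which overlapped. Mutants gave 9.73, 5.75, 7.03 and 0 FPKM and 12.4, 21.5, 9.11 and 20.1 FPKM, with mesenchymal replicate 4 listed at 0. Neither difference passed the threshold, at -0.69 ± 0.55 (SE, adjusted p = 0.441) and -1.70 ± 0.72 (SE, adjusted p = 0.121). Itga7, the laminin receptor of muscle, averaged 2.3 ± 1.25 FPKM in mesenchymal controls and was listed at 0 in all 3 non-mesenchymal controls. Its fitted difference of 1.66 ± 0.37 (SE, adjusted p = 0.0257) was lost as a call without any 1 of the non-mesenchymal controls, at adjusted p values of 0.0558 to 0.0629, and the gene was not tested in mutants.

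Itgb4, which pairs only with Itga6 and anchors epithelium in hemidesmosomes, was higher in non-mesenchymal mutants than in mesenchymal mutants. The controls had 2.79, 1.49 and 3.7 FPKM in mesenchymal and 3.35, 6.92 and 9.6 FPKM in non-mesenchymal libraries, with overlap and a difference of -1.01 ± 0.42 (SE, adjusted p = 0.149). The mutants had 2.07, 1.09, 0.832 and 0.506 FPKM and 9.09, 9.9, 6.69 and 8.86 FPKM, with no overlap and a difference of -2.22 ± 0.26 (SE, adjusted p = 0.00037).

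Itga5 and Itga8, which pair with Itgb1 and read the RGD motif of fibronectin and related proteins, were higher in mesenchymal cells. Itga5, the classical fibronectin receptor subunit, stood at 27, 22.7 and 25.2 FPKM in mesenchymal and 3.43, 3.9 and 4.04 FPKM in non-mesenchymal controls. In the mutants it stood at 30.3, 31.8, 16 and 26.4 FPKM and 3.39, 7.02, 5.02 and 4.8 FPKM. The lowest mesenchymal library was above the highest non-mesenchymal one, and the log2 differences were 2.44 ± 0.17 (SE, adjusted p = 0.000357) and 2.15 ± 0.27 (SE, adjusted p = 0.000562). Itga8, whose ligand nephronectin is known from kidney development, had 24.5, 11.3 and 21.9 FPKM in mesenchymal and 0.845, 0.824 and 0.0354 FPKM in non-mesenchymal controls. Its mutant values were 23.7, 17.8, 9.7 and 21.9 FPKM and 0.382, 2.17, 0.344 and 0.334 FPKM. It had the largest integrin difference toward mesenchyme among tested members, 3.67 ± 0.39 (SE, adjusted p = 0.00155) in controls and 3.46 ± 0.38 (SE, adjusted p = 0.000263) in mutants.

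Itgav, the alpha subunit shared by several RGD receptors, was high in both sorts. Mesenchymal controls had 72.7, 48.7 and 46.6 FPKM and non-mesenchymal controls 32.2, 26.2 and 32.1 FPKM. Mutants had 44.2, 68.5, 35.5 and 57.4 FPKM and 30.7, 33.5, 25.4 and 19.1 FPKM. The sorts did not overlap and both differences passed, at 0.85 ± 0.23 (SE, adjusted p = 0.0443) and 0.88 ± 0.25 (SE, adjusted p = 0.0333). The control call was lost when any 1 of the 6 libraries was left out, at adjusted p values of 0.0636 to 0.132. The mutant call was lost without mesenchymal replicate 2 or 4 or non-mesenchymal replicate 1, 3 or 4, at 0.052 to 0.0812. With median-ratio scaling the control difference was 0.72 with an adjusted p of 0.073.

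The beta partners of Itgav divided between the sorts. Itgb3 measured 20.9, 19.8 and 24.9 FPKM in mesenchymal and 5.84, 2.79 and 4.08 FPKM in non-mesenchymal controls. The mutant values were 20.2, 24.9, 17 and 22.7 FPKM and 4.49, 3.1, 1.52 and 2.15 FPKM. All mesenchymal libraries lay above, with log2 differences of 2.16 ± 0.26 (SE, adjusted p = 0.00258) and 2.59 ± 0.26 (SE, adjusted p = 0.000166). Itgb5, a vitronectin receptor subunit, spread widely in mesenchymal libraries, with 48.4, 14.2 and 17 FPKM in controls against 4.22, 10.6 and 6.5 FPKM in non-mesenchymal controls. Its mutant libraries gave 19.4, 35.7, 21.6 and 53.3 FPKM and 6.95, 14.2, 4.28 and 11.7 FPKM. The sorts did not overlap, but only the mutant difference passed, at 1.71 ± 0.42 (SE, adjusted p = 0.0181) against 1.63 ± 0.53 (SE, adjusted p = 0.0822) in controls, and without non-mesenchymal mutant replicate 1 the adjusted p was 0.0505. In 1 fit with all 4 groups, the control difference passed at an adjusted p of 0.0408.

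Itgb6, the epithelial partner of Itgav that activates latent TGF-beta, was on the other side. Mesenchymal controls had 0.286, 0.128 and 0.297 FPKM and non-mesenchymal controls 7.57, 13.5 and 28.8 FPKM. Mesenchymal mutants had 0.125, 0.162, 3.96 and 0.236 FPKM, with replicate 3 apart from the rest, and non-mesenchymal mutants 26.6, 59.7, 9.51 and 28.2 FPKM. Despite a spread of several-fold within the non-mesenchymal groups, the sorts did not overlap, and the differences were -3.65 ± 0.47 (SE, adjusted p = 0.00312) and -3.99 ± 0.65 (SE, adjusted p = 0.00226). Itgb8, a further partner of Itgav, was at 1.69 to 5.49 FPKM in all libraries of the model, with differences of 0.19 ± 0.20 and -0.53 ± 0.26 that missed the threshold.

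Itgb1, the partner of most alpha subunits, was the most abundant beta subunit in every group. It measured 103, 121 and 132 FPKM in mesenchymal and 38.3, 44.5 and 45.7 FPKM in non-mesenchymal controls. Mutants had 107, 108, 97.1 and 98 FPKM and 46.4, 59.3, 52.1 and 57 FPKM. Mesenchymal libraries were higher without overlap, by 1.45 ± 0.17 (SE, adjusted p = 0.0022) and 0.92 ± 0.13 (SE, adjusted p = 0.000968). Its share of all beta subunit level was 68.4% ± 9.47 in mesenchymal and 44.9% ± 4.83 in non-mesenchymal controls (SD, n = 3).

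Itga9, a receptor for tenascin C and other ligands, did not separate the sorts. Controls had 18.3, 19.4 and 23.4 FPKM in mesenchymal and 11.5, 20.3 and 16.4 FPKM in non-mesenchymal libraries. Mutants had 27.8, 19.2, 14.1 and 9.27 FPKM and 22.1, 27.2, 13.9 and 23.6 FPKM. The values overlapped in both contrasts, with 95% intervals of the log2 difference of -0.25 to 0.96 in controls and -1.14 to 0.44 in mutants.

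Several integrins known from leukocytes were higher in non-mesenchymal cells, with values for each below. Itga4, which binds VCAM-1 and fibronectin on leukocytes, measured 2.47, 4.02 and 2.95 FPKM in mesenchymal and 30.3, 25.1 and 20.3 FPKM in non-mesenchymal controls. The mutants had 4.97, 4.26, 3.97 and 4.17 FPKM and 29.3, 9.12, 14.5 and 8.15 FPKM. The highest mesenchymal library was at 4.97 FPKM, below every non-mesenchymal one, and the log2 differences were -2.66 ± 0.24 (SE, adjusted p = 0.000841) and -1.44 ± 0.36 (SE, adjusted p = 0.0197). Without non-mesenchymal mutant replicate 3 the mutant difference had an adjusted p of 0.0521.

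Itgal, the alpha subunit of the lymphocyte receptor for ICAM proteins, stood at 0.185, 0.793 and 0.291 FPKM in mesenchymal and 13.8, 15.7 and 15.9 FPKM in non-mesenchymal controls. The mutant libraries had 0.181, 0.133, 0.301 and 0 FPKM and 16.2, 7.45, 9.28 and 8.06 FPKM. Itgam, the subunit of macrophages and neutrophils, had 0.145, 0.441 and 0.227 FPKM and 12, 23.2 and 19.2 FPKM in controls. Both were under 1 FPKM in every mesenchymal library. Itgam measured 0.0999, 0, 0.282 and 0.297 FPKM and 8.27, 11.3, 20 and 26.1 FPKM in mutants, and the log2 differences in controls were -3.52 ± 0.24 (SE, adjusted p = 0.00034) for Itgal and -3.87 ± 0.29 (SE, adjusted p = 0.000485) for Itgam.

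Itgb2, their common beta subunit, followed the same order. Controls gave 0, 1.92 and 0.658 FPKM in mesenchymal and 11.4, 13.7 and 11.6 FPKM in non-mesenchymal libraries. Mutants gave 0.318, 0, 0 and 0 FPKM and 14.5, 9.39, 6.77 and 8.2 FPKM. The differences were -2.96 ± 0.41 (SE, adjusted p = 0.00425) and -3.27 ± 0.27 (SE, adjusted p = 4.78e-05). Itgb7, which pairs with Itga4 or Itgae, averaged 0.306 ± 0.414 against 4.63 ± 0.903 FPKM in controls, a difference of -2.14 ± 0.33 (SE, adjusted p = 0.00604). In mutants its difference was -1.29 ± 0.41 (SE, adjusted p = 0.0467), which was lost without any 1 of mesenchymal replicates 1, 2 and 3 or of the 4 non-mesenchymal libraries (adjusted p of 0.0728 to 0.104), without the filter (0.0613) and with a pseudocount of 0.1 (0.0643).

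Of the low leukocyte subunits, Itgae passed the test in mutants and the others were not tested. Itgae, the partner of Itgb7 that binds E-cadherin, was 0.0843 to 0.351 FPKM in mesenchymal and 0.852 to 1.59 FPKM in non-mesenchymal controls, and it passed in mutants at -1.44 ± 0.27 (SE, adjusted p = 0.00462). Itgax, a dendritic cell subunit, was listed at 0 in all 7 mesenchymal libraries and at 0.253 to 1.16 FPKM in the 7 non-mesenchymal ones of the model. Itgad was listed at 0 in all but 1 library of the model. The summed level of 8 leukocyte markers was 18.2 to 33.9 FPKM in mesenchymal and 436 to 748 FPKM in non-mesenchymal controls, and its part in the difference of these subunits was not tested.

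Itga2b, the platelet subunit that pairs with Itgb3, varied within every group and did not separate the sorts. It ranged from 0.517 to 13 FPKM in mesenchymal and 0.225 to 6.73 FPKM in non-mesenchymal libraries of the model, with differences of 0.69 ± 0.84 and -0.02 ± 0.64. Without mesenchymal control replicate 1 the control difference was -0.05. Itga2b measured 10.3, 2.95 and 0.517 FPKM in mesenchymal controls, where 6 platelet markers summed to at most 0.584 FPKM and Pf4 was listed at 0, and 1.36, 13, 2.79 and 2.03 FPKM in mesenchymal mutants, where the markers summed to 1.53, 0, 2.81 and 2.07 FPKM. In the non-mesenchymal fraction the sums ran from 16.6 to 63.2 FPKM without the floxed H19DMD allele and from 22.6 to 117 FPKM with it, and their part in the Itga2b values was not tested.

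**Figure D4:**
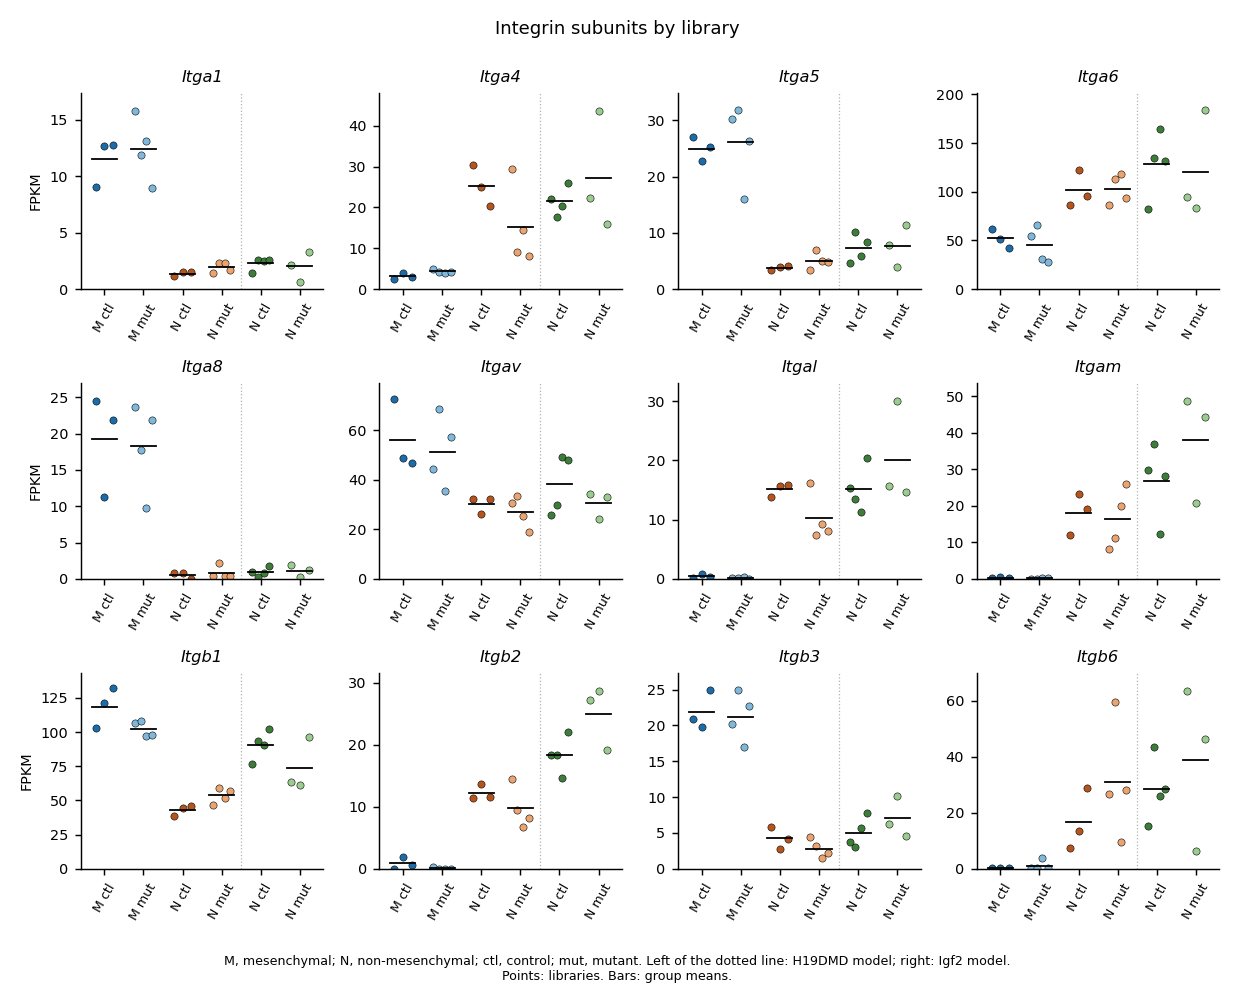
FPKM of 12 integrin subunits (vertical axes, each from 0) in every library (points) with group means (bars); left of the dotted line the H19DMD model, right the separately normalised Igf2 model. Itga1, Itga5, Itga8, Itgb1 and Itgb3 are higher in mesenchymal libraries of the H19DMD model, and Itga4, Itgal, Itgam, Itgb2 and Itgb6 are near 0 or low there.

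The partners of these members gave further counts, from lists chosen with earlier results of these data known. Of 18 genes of the basement membrane, 16 were tested in the control contrast, and 9 were higher and 0 lower in mesenchymal cells, beside the 12.4% and 10.3% of all genes. The laminin-binding nidogens led, with Nid1 at 408 ± 68.3 against 9.17 ± 2.13 FPKM and Nid2 at 59 ± 3.28 against 2.39 ± 0.382 FPKM (SD, n = 3), together with Frem1 at 33.5 ± 3.08 against 0.695 ± 0.715 FPKM. In the mutant contrast 7 of 17 were higher and 3 lower, beside 13.5% and 15.1% of all genes, the latter being Fras1 (-1.17 ± 0.26), Col4a5 (-0.86 ± 0.23) and Agrn (-0.82 ± 0.21, log2 with SE). The median difference of the list was 1.62 in controls and 0.89 in mutants.

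Among 13 other integrin ligands, all tested, 7 were higher and 2 lower in mesenchymal cells in each contrast, beside 12.4% and 10.3% of all genes in controls and 13.5% and 15.1% in mutants. Fibrillin 1 (Fbn1) measured 217 ± 37.4 against 2.33 ± 0.604 FPKM in controls, Vcam1, the ligand of Itga4, 30.2 ± 7.93 against 1.66 ± 0.928 FPKM, and tenascin C (Tnc) 23.5 ± 3.89 against 1.42 ± 0.12 FPKM. The lower 2 were osteopontin (Spp1), at 6.12 ± 2.95 against 929.9 ± 207 FPKM, and E-cadherin (Cdh1), the ligand of Itgae, at 0.821 ± 0.438 against 111 ± 17.6 FPKM.

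Of 20 intracellular adaptors of integrins, all tested, 10 were higher and 3 lower in mesenchymal controls, beside 12.4% and 10.3% of all genes. In mesenchymal mutants 5 were higher and 3 lower, beside 13.5% and 15.1%. The higher ones included Ilk, at 191 ± 22.5 against 65.6 ± 10.9 FPKM, Parva, at 60.9 ± 17.5 against 20.9 ± 7.62 FPKM, and Lims2, at 8.3 ± 3.97 against 0.294 ± 0.27 FPKM. The kindlins are known to split by tissue, and epithelial Fermt1 stood at 0.0654 ± 0.0641 against 14.7 ± 2.86 FPKM and blood cell Fermt3 at 0.239 ± 0.283 against 4.55 ± 1.15 FPKM. The parvin of blood cells, Parvg, stood at 0.324 ± 0.292 against 8.69 ± 1.65 FPKM. Of 4 hemidesmosome genes, 3 were tested and 0 passed in either contrast.

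The second question was whether the mutations changed these genes, and log2 differences are then mutant minus control. In mesenchymal cells of the H19DMD model, 0 of 27 tested members passed the threshold by limma, against 0.0694% of 15856 genes, and 0 had an unadjusted p under 0.05, against 4.76%. The latter count was 2 without mutant replicate 1 and in 1 fit of 4 groups, and 1 without control replicate 2, without mutant replicate 4 and with a replicate block. Every mutant library lay below every control for 1 member, against 3.77% of genes, and above every control for 0, against 1.62%. A single member below is a share close to that of all genes. That member was Lama5, at 11.5, 6.68, 2.85 and 10.9 FPKM in mutants and 19, 14.7 and 12.1 FPKM in controls. The highest mutant value and the lowest control value were close, and the log2 difference was -0.98 ± 0.44 (SE, 95% interval -2.01 to 0.05, adjusted p = 0.927, exact permutation p = 0.114). Without mutant replicate 3, which had the lowest Lama5, the difference was -0.62.

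Markers of other cells in these libraries overlapped between the groups. The summed mesothelial markers were 304, 153 and 138 FPKM in mesenchymal controls and 123, 146, 97.8 and 111 FPKM in mutants, and the ductal and epithelial markers 88.8, 35.4 and 56 against 39.5, 37.4, 22.9 and 14 FPKM. Smooth muscle and pericyte markers summed to 811, 505 and 841 against 762, 442, 415 and 169.9 FPKM. Mesothelial markers were lower in mutants for 5 of 6 tested genes, and smooth muscle and pericyte markers for 6 of 7, with 0 past the threshold. Their part in the Lama5 values was not tested. Next by unadjusted p were Itgb4 (-0.79 ± 0.38, SE) and Itga4 (0.38 ± 0.22), both with overlapping groups. The intervals of the abundant members were narrower, with -0.19 to 0.50 for Lamb1, -0.54 to 0.27 for Lamc1, -0.48 to 0.40 for Lama4 and -0.56 to 0.14 for Itgb1.

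In non-mesenchymal cells of the H19DMD model, 0 of 27 tested members passed, against 0.0677% of 16239 genes, and 3 had an unadjusted p under 0.05, against 5.35%. The latter count was 7 without mutant replicate 1, 5 in 1 fit of 4 groups and 2 to 4 without any other library. Every mutant library was above every control for 6 members, against 3.47% of genes, and below for 0, against 2.2%. Among them were Lama5, Lamc1, Itgae, Itgb1 and Itgb8. All 7 tested laminins had positive differences, with a median of 0.50, and the median of all 27 members was 0.32 against 0.05 over all genes. Without control replicate 1 these medians were 0.20 and -0.02.

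Lama5 measured 39.1, 48.7, 55.4 and 47.5 FPKM in mutants and 26.5, 23.2 and 25 FPKM in controls, a 1.91-fold ratio of means. Lamc1 measured 98.2, 138, 110 and 147 against 80.4, 78.4 and 70.8 FPKM. For both chains the lowest mutant exceeded the highest control. The log2 differences were 0.90 ± 0.16 for Lama5 (SE, unadjusted p = 0.000725, adjusted p = 0.725) and 0.66 ± 0.18 for Lamc1 (adjusted p = 0.892) by limma. The exact permutation p of Lama5 was 0.0286, the smallest this design allows.

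The 3 integrins of this set had smaller differences. Itgb1 stood at 46.4, 59.3, 52.1 and 57 FPKM in mutants and 38.3, 44.5 and 45.7 FPKM in controls, with a log2 difference of 0.32 ± 0.15. Itgb8 stood at 3.04, 5.49, 4.22 and 2.81 against 2.67, 2.42 and 2.31 FPKM (0.47 ± 0.25) and Itgae at 1.63, 2.21, 2.59 and 1.6 against 1.59, 0.852 and 1.34 FPKM (0.41 ± 0.28). None passed the adjusted threshold, and the 3 lowest differences among tested members were those of Itga4 (-0.84), Itgal (-0.58) and Itgb3 (-0.48), all with overlapping groups. Ductal and epithelial markers summed to 374, 596 and 553 FPKM in these controls and 527, 841, 604 and 877 FPKM in the mutants, with 8 of 8 genes higher. Acinar markers were lower for 8 of 8 genes, endocrine markers lower for 7 of 9 and mesenchymal markers higher for 7 of 8, and 0 genes of these lists passed the threshold. Igf2 stood at 45.2 to 53.2 FPKM in these controls and 45.4 to 157 FPKM in the mutants. The part of these shifts in the laminin values was not tested.

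In non-mesenchymal cells of the Igf2 model, 0 of 30 tested members passed, against 0.0631% of 17441 genes, and 1 had an unadjusted p under 0.05, against 5.28%. The latter count was 4 without mutant replicate 3, 1 without mutant replicate 2, and 0 without mutant replicate 1 or any 1 control, with median-ratio scaling, without trend and with a replicate block. No member had all mutants above all controls, against 2.65% of genes, or all below, against 3.37%. The lowest unadjusted p belonged to Lama4, at 38.4, 31.4 and 49.6 FPKM in mutants and 48.8, 51.8, 61.3 and 54.5 FPKM in controls, a log2 difference of -0.45 ± 0.19 (SE, adjusted p = 0.919). Next came Itgb2, at 27.3, 28.7 and 19.1 against 18.4, 18.3, 14.6 and 22 FPKM (0.42 ± 0.21). Both overlapped by 1 library or more. Leukocyte markers summed to 704 to 1043 FPKM in controls and 953 to 1477 FPKM in mutants, higher in 8 of 8 genes with 0 past the threshold. Their part in the Itgb2 values was not tested. Ductal and epithelial markers did not overlap, at 793 to 1010 FPKM in controls and 611 to 765 FPKM in mutants. They were lower for 7 of 8 genes, with 0 past the threshold. Acinar markers were also apart, at 28672 to 41572 FPKM in controls against 84366 to 96189 FPKM in mutants. They were higher for 7 of 8 genes, with 0 past the threshold. The part of the ductal, epithelial and acinar markers in the values of the members was not tested.

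Lama5, the chain with the largest effect in the other model, measured 57.6, 25.5 and 49.1 FPKM in Igf2 mutants and 46.9, 65.6, 48.4 and 48 FPKM in controls. The groups overlapped, with a 95% interval of the log2 difference of -1.0 to 0.39, and mutant replicate 2 was the lowest library. Lamc1 and Itgb1 also overlapped, with intervals of -0.88 to 0.48 and -0.79 to 0.16.

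**Figure D5:**
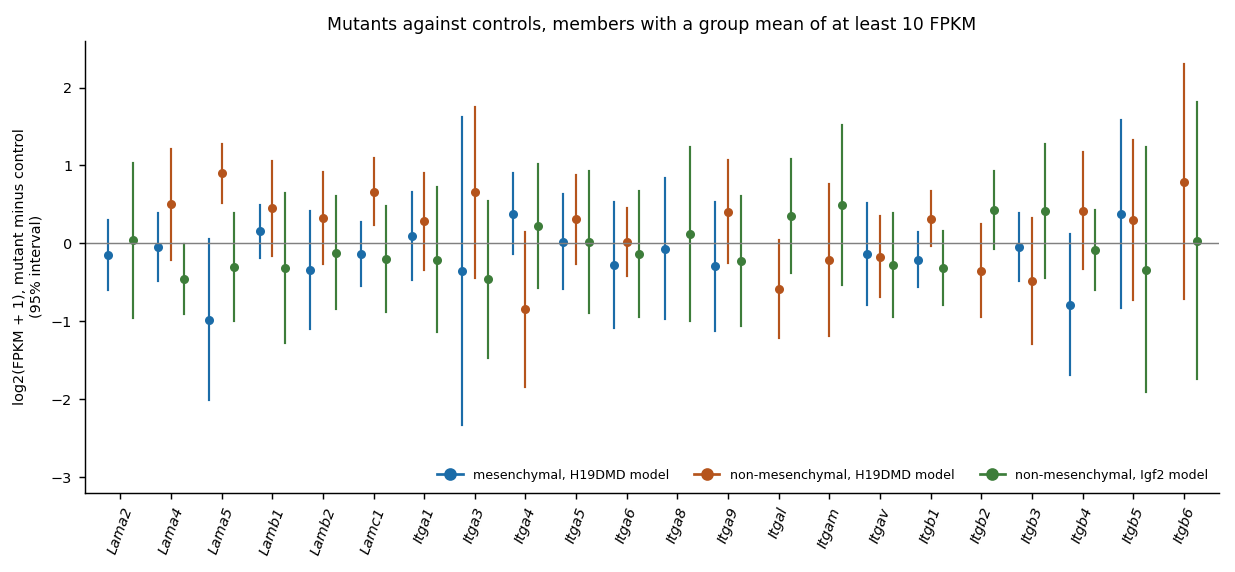
Log2 difference between mutants and controls (vertical axis, log2(FPKM + 1), points with 95% intervals from limma) for members with a group mean of at least 10 FPKM; a missing point is a gene that was not tested there. Lama5 lies at -0.98 in mesenchymal and 0.90 in non-mesenchymal cells of the H19DMD model, and no point passed the adjusted threshold.

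Whether the H19DMD effect differed between the sorts was tested as an interaction over all 14 libraries of the model. Of 30 tested members, 0 passed the adjusted threshold, against 0.0117% of 17105 genes, and 7 had an unadjusted p under 0.05, against 6.35%. The latter count was 4 without mesenchymal control replicate 1, without non-mesenchymal control replicate 1, with a replicate block and with a mean of at least 5 FPKM, which tests 21 members, and 5 to 8 without any other library. The effect in mesenchymal minus that in non-mesenchymal cells was -1.88 ± 0.48 for Lama5 (SE, unadjusted p = 0.00202, adjusted p = 0.675). Itgb4 (-1.21 ± 0.47), Lamc1 (-0.80 ± 0.24), Itgb8 (-0.72 ± 0.32) and Itgb1 (-0.52 ± 0.19) were also negative, while Itga4 (1.22 ± 0.48) was positive. All 7 tested laminins were negative, with a median of -0.74 beside -0.11 over all genes. With median-ratio scaling the median of all genes was close to 0. Under that scaling Lama5 was at -1.75 with an adjusted p of 0.737.

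None of the 4 lists of partner genes had a member past the threshold in any mutant comparison or in the interaction by limma. The partners of the basement membrane had median log2 differences of -0.16 in mesenchymal and 0.24 in non-mesenchymal cells of the H19DMD model, and -0.14 in the Igf2 model.

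The non-mesenchymal groups of both models can be set side by side only as levels, since their tables were normalised separately. Control means were 24.9 ± 1.63 FPKM (SD, n = 3) in the H19DMD model and 52.2 ± 8.98 FPKM (n = 4) in the Igf2 model for Lama5, 76.5 ± 5.05 and 154 ± 26.5 FPKM for Lamc1, and 42.8 ± 3.98 and 90.5 ± 10.5 FPKM for Itgb1. Itga6 stood at 102 ± 18.4 and 128 ± 33.9 FPKM, and Lama2 at 0.427 ± 0.21 and 1.99 ± 1.13 FPKM. The order of the 4 most abundant laminins, Lamc1, Lamb1, Lama4 and Lama5, was the same in both control groups, though Lama4 and Lama5 lay within their spread of each other. The ratio of Lama4 to Lama5 within a library was 0.794 ± 0.0889 (SD, n = 4) in the non-mesenchymal H19DMD mutants, at most 0.894, so that Lama5 exceeded Lama4 in 4 of 4 libraries. In their controls it was 1.11 ± 0.413 (n = 3), from 0.639 to 1.41. It was 1.06 ± 0.202 (n = 4) in the Igf2 controls and 0.969 ± 0.283 (n = 3) in the Igf2 mutants, both with values on each side of 1.

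Of the 37 members, 22 had a group mean of at least 10 FPKM, 6 laminins and 16 integrins, and 15 were below it in every group. The loci of all 37 overlapped the gene of the same name in the GENCODE M21 annotation of GRCm38. Lama5 lies on chromosome 2 from 180176373 to 180225859 on the minus strand, Lama2 on chromosome 10 from 26980036 to 27619758 on the minus strand, Lamc1 on chromosome 1 from 153218922 to 153332786 on the minus strand and Itgb1 on chromosome 8 from 128685654 to 128733200 on the plus strand. Another gene on the opposite strand overlapped 15 members, among them Lama2, Lamc1, Itga1, Itga4, Itga6, Itga8, Itga9, Itgav and Itgb4. Whether reads were counted by strand is not given in the sources used here, so the values of those 15 may include reads of the other gene. Counting both strands, another gene overlapped 20 members. Protein-coding genes on the same strand overlapped Itga1, Itga10 and Itgam. Members overlapped on the same strand may include reads of the other gene whatever the strand setting.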

How the data were processed

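Expression was measured by RNA sequencing of amplified RNA from sorted cells, single-end, per the labels' protocols. The deposited values are FPKM, per the file headers, in 2 tables that the authors normalised separately. The submitters' processing notes name TopHat2 2.0.8, Cufflinks 2.2.1 and GRCm38, and the annotation, strand setting and filters are not given in the sources used here. Low values fell on no common step in most libraries, so read depth is unknown.

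Groups came from the labels. Genes that averaged 1 FPKM or more in a comparison's libraries were tested on log2(FPKM + 1) within a table with limma 3.58.1 (lmFit, eBayes with trend, two-sided) in R 4.3.3, with Benjamini-Hochberg adjustment over all tested genes at 0.05, after the code was tested on simulated data. Single members also had an exact two-sided permutation test. Members with a group mean of at least 10 FPKM are given by library in the fraction comparisons. In mutant comparisons, those past the threshold or without overlap are named, otherwise those of lowest p, and up to 3 partners per list and direction. Members and lists were chosen with earlier results of these data known. Promoters are from RefSeq (GRCm38.p6). Alternatives were a pseudocount of 0.1, no filter, a mean of at least 5 FPKM, median-ratio scaling, no trend, 1 fit of 4 groups, a block on the replicate number and leaving out each library. Mesenchymal libraries of the Igf2 model were not analysed here. The counts cover all members, and 1 member is not reported here.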

Additional observations from a re-analysis of the deposited data

Results flagged for a closer look

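Of 86 combinations of a member and a group of 4 libraries, 8 had a highest or lowest library that stood apart by Dixon's test on the log2(FPKM + 1) scale, and chance alone flags about 1 in 20. In mesenchymal H19DMD mutant replicate 3, Lamb2 was lowest at 6.30 FPKM, Lamc1 lowest at 157 FPKM, Itga11 lowest at 2.46 FPKM and Itgb6 highest at 3.96 FPKM. Lamc3 was highest at 5.98 FPKM in mesenchymal H19DMD mutant replicate 1. Among the non-mesenchymal Igf2 controls, Lama5 was highest at 65.6 FPKM in replicate 2, Itga1 lowest at 1.45 FPKM in replicate 1 and Itgb4 lowest at 8.49 FPKM in replicate 3.

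For Lama5, every H19DMD mutant library was below every control in mesenchymal cells and above every control in non-mesenchymal cells. The difference between these effects was -1.88 on the log2(FPKM + 1) scale, with an adjusted p of 0.675 by limma.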

How the results depend on the processing

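The counts of members called stayed within 1.5 times of the reported ones, with 1 exception: 6 members in place of 11 were lower in mesenchymal mutants when a mean of at least 5 FPKM was required, a filter that tests fewer genes. Leaving out each library in turn gave 11 to 12 members higher and 6 to 9 lower in mesenchymal controls, 10 to 13 higher and 8 to 11 lower in mutants, and 0 in every mutant comparison. Of 827 values of single members in the fraction contrasts, 760 kept direction and side of the threshold, 44 lost the call, 14 gained it and 9 changed sign. Of 528 in the mutant comparisons and the interaction, 518 kept both and 10 changed sign. None of those that changed sign had been called. With median-ratio scaling they were Itga2 between the control sorts (-0.037), and Lama4 (0.0366) and Itgb3 (0.029) in mesenchymal H19DMD mutants. Leaving out each library gave -0.113 to 0.219 for Itga2 and -0.0494 to 1.4 for Itga2b between the control sorts, -0.577 to 0.279 for Itga2b between the mutant sorts, and -0.149 to 0.0483 for Lama4 and -0.126 to 0.0489 for Itgb3 in mesenchymal H19DMD mutants. In the Igf2 model it gave -0.532 to 0.0397 for Lama5, -0.83 to 0.057 for Lamb1, -0.438 to 0.129 for Lamc1 and -0.17 to 0.532 for Itga4, each turning without mutant replicate 2. The causes were not tested.

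Libraries with the same replicate number had deviations that correlated at -0.05 to 0.07, each under the 0.1 required here, and the labels do not say that a number marks a shared animal. The 2 sorts of a number correlated at 0.02 to 0.07 in controls, 2 of 3 best with their own number, and at 0.01 to 0.04 in mutants, 3 of 4 best with theirs. A replicate block gave 11 members higher and 6 lower in controls and 13 and 10 in mutants, with 0 in each mutant comparison. Under it Itga6 (adjusted p = 0.0741), Itga7 (0.0786) and Itgav (0.0723) were no longer called in controls, nor Itgb7 (0.0686) in mutants. With 3 or 4 libraries a group and unknown depth, small differences of low members may have been missed. The smallest difference that could be detected was not calculated. The planned comparisons with mesenchymal Igf2-model libraries were not run.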

Other observations

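The ratio of Itga6 to Itgb1 was 0.449 ± 0.14 (SD, n = 3) in mesenchymal and 2.37 ± 0.333 in non-mesenchymal H19DMD controls, and 1.41 ± 0.308 (n = 4) in non-mesenchymal Igf2 controls. Summed beta chains were 0.959 ± 0.0804 and 0.507 ± 0.191 of summed gamma chains in the same mesenchymal and non-mesenchymal groups. In the Igf2 model, Lamb3 measured 1.39, 1.88, 21.3 and 0.7 FPKM in non-mesenchymal controls and 2.34, 0.223 and 20.9 FPKM in mutants, so that replicate 3 of both groups stood far above the others.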
